A study of Homo sapiens with 6 samples.

Results

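BST2, BISPR and IFI16 are 3 of the 60676 genes counted by RNA-seq in TC71 cells, a human Ewing sarcoma line, and all 3 were among the 16785 genes with enough counts to be tested. They were picked by their symbols because their RNA fell most clearly in the one contrast that these libraries hold, so their own differences below are a description and carry no test. The control group, shNTC+Dox, and the knockdown group, shEHD1+Dox, held 3 libraries each. Both groups were TC71 cells that carried a lentiviral, doxycycline-inducible shRNA vector encoding GFP, were selected with puromycin as polyclonal lines, and received doxycycline at 0.5 µg/ml for 3 days. The shRNA was non-targeting (NTC) in the first group and directed at EHD1, an ATPase of endocytic recycling, in the second. Which of the study's EHD1 shRNAs was used is not given by the labels, and the libraries compared here hold no cells without doxycycline. The labels do not say that the 3 libraries of a group came from separate cultures, so errors and p-values measure the spread between these libraries, which may be technical.

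BST2 (bone marrow stromal antigen 2, or tetherin) is a cell surface protein that holds budding enveloped viruses on the cell, anchored by a transmembrane segment at its N-terminus and a glycosylphosphatidylinositol (GPI) anchor at its C-terminus. It is taken up by clathrin-coated vesicles and can signal to NF-kB. BISPR, the BST2 interferon-stimulated positive regulator, is a long non-coding RNA transcribed away from BST2 out of the shared promoter region. IFI16 is a mostly nuclear sensor of double-stranded DNA of the PYHIN family, which signals through STING1. All 3 are known as interferon-inducible genes: type I interferon binds the receptor chains IFNAR1 and IFNAR2, the kinases JAK1 and TYK2 are activated, and a complex that contains STAT2 and IRF9 binds the interferon-stimulated response element (ISRE) of target promoters. The gamma-activated site (GAS) is the element known for the response to interferon gamma.

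BST2 (ENSG00000130303) lies on the minus strand at chr19:17402939-17405630 (hg38), and BISPR (ENSG00000282851) lies on the plus strand at chr19:17405686-17419324. Their start sites are 56 bases apart and point in opposite directions. IFI16 (ENSG00000163565) lies on the plus strand at chr1:158999968-159055155. The promoter windows of RefSeq (GRCh38.p14), 250 bases before to 50 bases after each start site, are shown because the 3 genes moved together and are known for a shared inducer. They read 5′ to 3′ on the strand of the gene, with capitals for letters that match the ISRE core (GAAANNGAAA) or GAS (TTCNNNGAA) on either strand.
BST2, chr19:17405581-17405880, minus strand: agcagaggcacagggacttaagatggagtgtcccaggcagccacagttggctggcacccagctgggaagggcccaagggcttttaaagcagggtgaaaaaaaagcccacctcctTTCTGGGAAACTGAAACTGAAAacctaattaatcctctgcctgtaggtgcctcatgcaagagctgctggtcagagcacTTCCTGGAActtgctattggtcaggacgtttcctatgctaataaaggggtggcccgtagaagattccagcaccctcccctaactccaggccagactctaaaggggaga
BISPR, chr19:17405436-17405735, plus strand: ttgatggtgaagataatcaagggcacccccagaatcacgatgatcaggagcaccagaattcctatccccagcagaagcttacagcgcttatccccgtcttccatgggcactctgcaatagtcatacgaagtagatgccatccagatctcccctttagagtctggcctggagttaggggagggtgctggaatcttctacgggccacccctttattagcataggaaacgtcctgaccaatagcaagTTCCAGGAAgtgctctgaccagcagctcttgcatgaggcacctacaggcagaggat
IFI16, first start site, chr1:159008741-159009040, plus strand: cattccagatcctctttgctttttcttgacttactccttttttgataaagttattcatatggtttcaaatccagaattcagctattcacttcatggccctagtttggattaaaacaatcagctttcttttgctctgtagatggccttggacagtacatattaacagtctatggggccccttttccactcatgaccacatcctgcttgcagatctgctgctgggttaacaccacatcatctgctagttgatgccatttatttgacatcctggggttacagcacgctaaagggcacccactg
IFI16, second start site, chr1:159009657-159009956, plus strand: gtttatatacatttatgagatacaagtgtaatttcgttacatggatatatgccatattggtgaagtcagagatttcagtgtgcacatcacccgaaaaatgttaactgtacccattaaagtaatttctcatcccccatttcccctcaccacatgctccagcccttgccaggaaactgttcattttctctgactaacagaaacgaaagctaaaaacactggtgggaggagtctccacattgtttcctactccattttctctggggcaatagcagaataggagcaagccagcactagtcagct

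The BST2 window held 2 overlapping ISRE cores, both GAAACTGAAA, at -130 to -121 and -124 to -115 from the start site (the start base counts as 0). A GAS match, TTCTGGGAA, lay at -136 to -128 and overlapped the first ISRE core. A second GAS match, TTCCTGGAA, lay at -58 to -50. The BST2 and BISPR windows overlap by 155 bases, and the second GAS match is the one that the BISPR window shows as TTCCAGGAA at -6 to 2. The 2 ISRE cores, at chr19:17405751-17405760 and chr19:17405745-17405754, lie just past the end of the BISPR window, which therefore could not show them. Neither IFI16 window matched either motif. Of the 35116 RefSeq promoter windows of the same length, 3.57% held the ISRE core and 7.66% held GAS, each searched on both strands. GGAAGGAA, a repeat of the GGAA core that the Ewing fusion protein EWS-FLI1 is known to bind, was in 3.67% of all windows and in none of these 4. TATAA was in 20.4% of all windows and, among these, only in the second IFI16 window, on the minus strand at -248 to -244. The RefSeq start sites of IFI16 lie 9023 and 9939 bases after the start of the GENCODE gene model, used here for positions and exons. The IFI16 windows therefore do not cover that first start. A match is a run of letters and not a measured binding site, and no match says only that the letters are not in the window.

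EHD1, the target of the shRNA, was lower in every shEHD1+Dox library. Its counts were 713, 775 and 589 with shNTC+Dox and 215, 175 and 290 with shEHD1+Dox. These were 27.1 ± 0.809 and 8.02 ± 1.18 CPM (counts scaled to library size, mean ± SD, n = 3 libraries each). The fitted log2 difference was -1.76 (SE 0.12, edgeR adjusted p = 0.000135). SE is an approximate standard error, here the size of the log2 difference divided by the square root of the test's F statistic. Totals were 22711235 to 28203023 counts for shNTC+Dox and 24150135 to 30582187 for shEHD1+Dox, so that 3 counts, the floor used here, equal 0.0968 to 0.134 CPM. All 7 Ewing sarcoma markers, among them CD99, FLI1 and NKX2-2, were at 1 CPM or more with shNTC+Dox, and their summed level was 2090 to 2220 CPM with shNTC+Dox and 1870 to 2000 CPM with shEHD1+Dox. Most of this sum was CCND1 (means of 1380 and 1180 CPM, not called). CD99 rose (233 to 294 CPM, edgeR adjusted p = 0.0293), STEAP1 fell (207 to 154 CPM, edgeR adjusted p = 0.00443), and the other Ewing markers were not called. Of 8 lymphoid and myeloid markers, cells in which BST2 and IFI16 are known to be high, 1 (CD68) reached 1 CPM and 4 were at 3 counts or fewer in every library. Their sum was 3.34 to 5.74 CPM with shNTC+Dox and 2.39 to 4.88 CPM with shEHD1+Dox. Of 5 endothelial markers, 4 were at 3 counts or fewer everywhere, with sums of at most 0.246 CPM. The 6 fibroblast markers, of which 5 reached 1 CPM with shNTC+Dox, summed to 256 to 343 CPM with shNTC+Dox and 448 to 511 CPM with shEHD1+Dox. Of them COL3A1 rose (194 to 359 CPM, edgeR adjusted p = 0.000732), DCN fell (4.85 to 2.40 CPM, edgeR adjusted p = 0.00778), and COL1A1, COL1A2, LUM and PDGFRB were not called. Their part in the results below was not tested.

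BST2 RNA was present in TC71 cells and fell to 10.6% of its control level. Control libraries held 684, 754 and 561 BST2 counts, and knockdown libraries held 74, 66 and 93. Scaled to library size, these were 26.0, 27.2 and 25.1 CPM against 2.60, 2.69 and 3.00 CPM. The groups lay far apart: the lowest control library was 8.36 times the highest knockdown library, whereas the coefficient of variation within a group was 4.07% and 7.65%. The means were 26.1 ± 1.06 and 2.76 ± 0.212 CPM (SD, n = 3 each), a 9.44-fold lower level and a fitted log2 fold change of -3.23 (SE 0.12). Among the 8379 genes with a log2 fold change below 0, BST2 ranked 1 by the p-value of the test and 18 by size.

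IFI16 came next in rank by p-value, at 2, and ranked 29 by size. Its counts were 876, 862 and 810 with shNTC+Dox and 143, 113 and 152 with shEHD1+Dox. In CPM these were 33.2, 31.1 and 36.2 against 5.02, 4.61 and 4.91 CPM. No library of one group came near the other, with the lowest control 6.20 times the highest knockdown library. The means were 33.5 ± 2.58 and 4.84 ± 0.208 CPM (SD, n = 3 each), which leaves 14.5% of the control level, 6.92-fold lower, and the log2 fold change was -2.79 (SE 0.11).

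BISPR was the rarest of the 3 and its values were the least precise. It had 41, 54 and 33 counts with shNTC+Dox and 13, 8 and 18 with shEHD1+Dox. This corresponds to 1.56, 1.95 and 1.48 CPM against 0.456, 0.327 and 0.581 CPM. The groups did not overlap, at a ratio of 2.54 between the nearest libraries, but the coefficients of variation, 15.2% and 28.0%, were several times those of BST2. The means were 1.66 ± 0.253 and 0.455 ± 0.127 CPM (SD, n = 3 each), so 27.4% was left, 3.65-fold lower, at a log2 fold change of -1.85 (SE 0.33). By p-value BISPR ranked 447 among the falls, between TCF3 at -0.35 and ZFP62 at -0.51, and by size 94. It thus did not fall most clearly of all genes by either rank. The places of BST2 and IFI16 come from the contrast on which all 3 were picked.

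**Figure D1:**
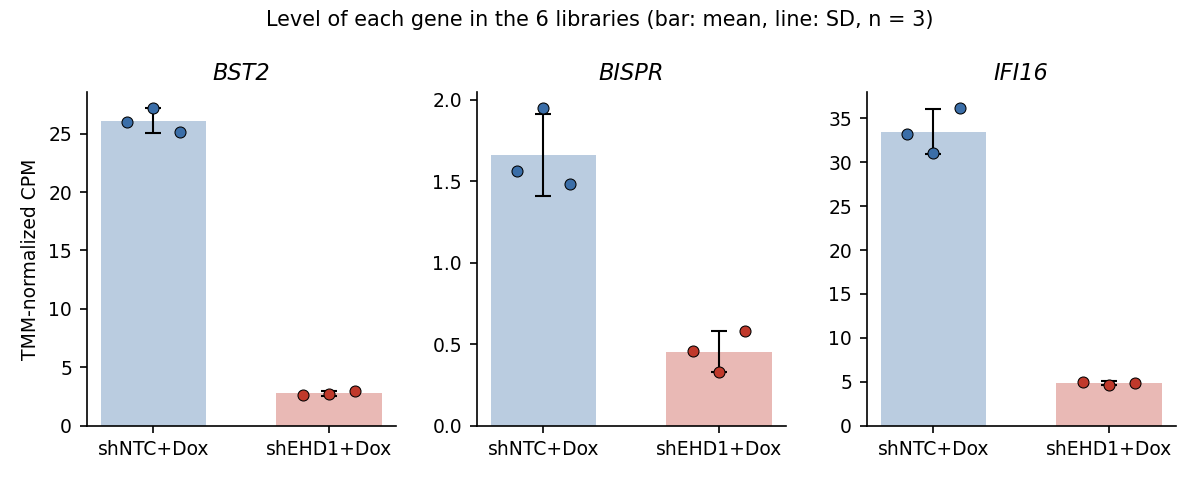
TMM-normalized CPM of BST2, BISPR and IFI16 on separate linear axes from 0, with a point per library, a bar at the mean of the 3 libraries of a group and a line for the SD. In each panel the 3 shEHD1+Dox points (red) lie below the 3 shNTC+Dox points (blue), with mean CPM of 26.1 against 2.76 for BST2, 1.66 against 0.455 for BISPR and 33.5 against 4.84 for IFI16.

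For comparison, 8.75% of the 16785 genes tested were lower and 8.59% were higher at an adjusted p under 0.05, and 1.74% (292) were lower and 1.08% (181) higher by 2-fold as well. The counts by 2-fold fell to 192 lower and 101 higher without shEHD1+Dox replicate 3, and to 96 higher without shEHD1+Dox replicate 1. The 3 knockdown libraries all lay below the 3 controls in 19.4% of genes, and all above them in 19.9%. These shares give the background of the contrast and are no evidence about the 3 genes, which were selected on it. The places after IFI16 by p-value went to NRAS, the small GTPase, at a log2 fold change of -1.65 (255 to 81.3 CPM), KIF14 at -1.34, DCAF7 at -1.26, OSTM1 at -1.47 and EXOC5 at -1.54, so BST2 and IFI16 stood ahead of them in size as well.

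**Figure D2:**
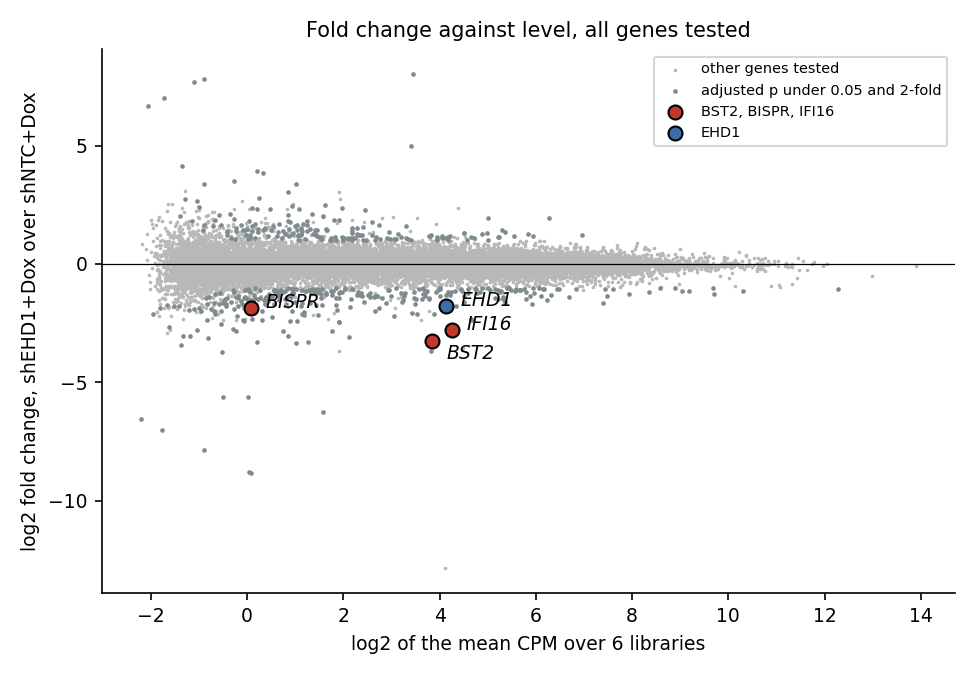
Log2 fold change of shEHD1+Dox over shNTC+Dox against the log2 of the mean CPM over 6 libraries, with a point for each of the 16785 genes tested and darker points for genes at adjusted p under 0.05 and at least 2-fold. BST2 (-3.23) and IFI16 (-2.79) lie below EHD1 (-1.76) at a similar level, and BISPR (-1.85) lies among weakly expressed genes.

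Levels of different genes were compared as CPM per kilobase of exon, since IFI16 has 5294 exon bases, BISPR 3045 and BST2 1101. With shNTC+Dox, BST2 was at 23.7 ± 0.963, IFI16 at 6.33 ± 0.487 and BISPR at 0.545 ± 0.083 CPM per kb (SD, n = 3). With shEHD1+Dox they were at 2.51 ± 0.192, 0.915 ± 0.0393 and 0.149 ± 0.0418 CPM per kb. The order BST2, IFI16, BISPR held in both groups with no overlap of libraries between neighbours. The distances shrank, from 3.74 to 2.74 for the ratio of BST2 to IFI16 and from 43.5 to 16.8 for that of BST2 to BISPR. Among 16715 tested genes with an annotated length, BST2 moved from percentile 88.8 to 42.3 of the levels per kilobase, IFI16 from 62.2 to 26.1 and BISPR from 19.1 to 5.83. BST2 thus went from an abundant RNA in this line to one below the middle of the tested genes.

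Reads of the 3 genes differ in how safely they can be assigned. The exons of BST2, in 3 annotated transcripts, shared no base with another gene of the table, and none of its 75-base words, the length of a read, recurred in another gene's transcripts. IFI16, in 13 transcripts, also shared no exon base with another counted gene, and 351 of its 5402 words (6.5%) recurred in PYDC5. BISPR, in 18 transcripts, shared 620 exon bases (20.4%): 363 with MVB12A, an ESCRT-I subunit on the same strand, 237 with AC010319.4 and 20 with AC010319.3, both on the opposite strand. The library kit does not mark strand, and how reads in shared exons were assigned is not given in the sources used here. MVB12A, the most abundant of these, had 530, 569 and 336 counts with shNTC+Dox and 852, 488 and 868 with shEHD1+Dox, with a fitted value of 0.48 (SE 0.17, edgeR adjusted p = 0.0918). When the counts of BISPR and these 3 genes were summed, the log2 fold change was 0.39 (SE 0.17), a sum that consists mostly of MVB12A counts. The sum therefore follows MVB12A and cannot show how BISPR itself moved. How far the value of BISPR depends on the assignment of reads between it and its neighbours was not tested.

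The genes around the members were described by position alone. Within 200 kb of the BST2 start site, 15 of 33 other annotated genes were tested, with 2 lower and 1 higher, and their median log2 fold change was -0.20. BABAM1, a subunit of the BRCA1-A complex, fell (-0.47, SE 0.08, edgeR adjusted p = 0.00443), as did the nuclease gene ANKLE1 (-0.68, SE 0.12, edgeR adjusted p = 0.00728). NR2F6, an orphan nuclear receptor, rose (0.33, SE 0.08, edgeR adjusted p = 0.0303), a call that was lost when any library but shNTC+Dox replicate 3 was left out (adjusted p up to 0.104). The fitted values of the 15 genes ran from -0.94 (ABHD8, no call) to 0.59 (SLC27A1, no call), so none came near the -3.23 of BST2. MVB12A starts 92 bases from the start site of BST2, and CCDC194, the nearest gene on the other side, had no count in any library. Around IFI16 none of 8 annotated genes could be tested, and their highest count in a library was 1. Among them are the other PYHIN genes MNDA, PYHIN1 and AIM2, which had 0 counts in all 6 libraries, so IFI16 was the only PYHIN gene detected in these TC71 cells at this depth.

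**Figure D3:**
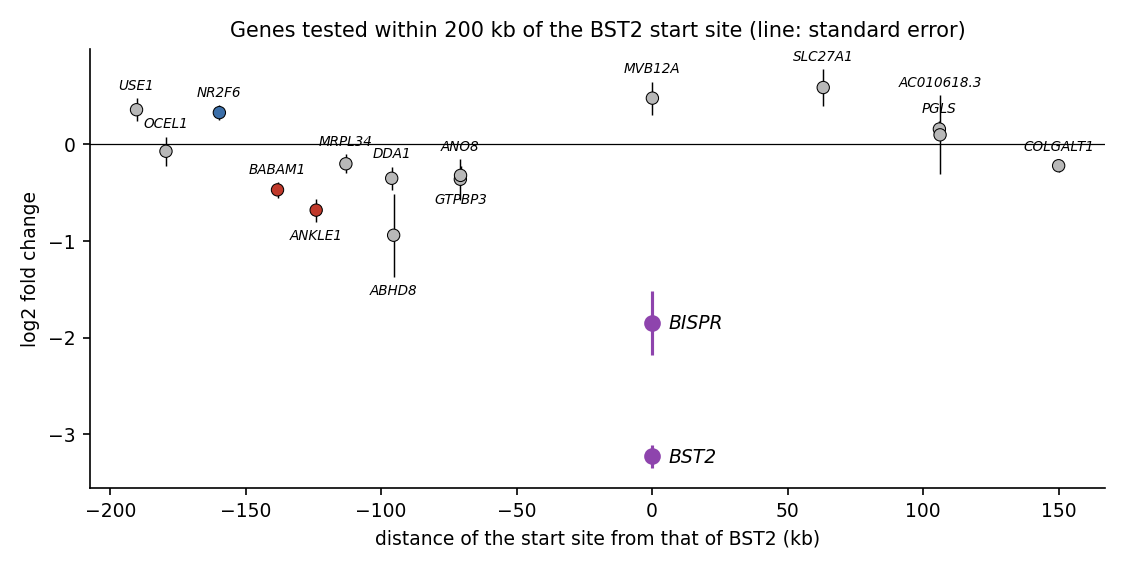
Log2 fold change of shEHD1+Dox over shNTC+Dox, with standard error bars, against the distance of each gene's start from that of BST2 in kilobases, for the tested genes within 200 kb (red lower, blue higher, grey no call, purple BST2 and BISPR). BST2 (-3.23) and BISPR (-1.85) lie next to each other below all 15 other genes, whose values run from -0.94 to 0.59.

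The signalling steps of the interferon pathway were mostly without a call. Of 16 interferon ligand and receptor genes 5 were tested, and every untested one, the type I interferon genes included, had 0 counts in all libraries. The receptor chains IFNAR1 (-0.15, edgeR adjusted p = 0.272) and IFNAR2 (-0.02, edgeR adjusted p = 0.901) passed no threshold, and the interferon gamma receptor chains IFNGR1 (0.34, edgeR adjusted p = 0.0377) and IFNGR2 (0.29, edgeR adjusted p = 0.0283) were higher, which is 40.0% of the 5 tested genes against 8.59% of all genes. Of 14 tested JAK, STAT and IRF genes 1 (7.14%, against 8.75% of all genes) was lower and 3 (21.4%, against 8.59%) were higher, with a median log2 fold change of 0.13 beside 0.00 for all genes tested. Other central genes passed no threshold: JAK1 at 0.25, TYK2 at 0.01, STAT2 at 0.40, IRF9 at 0.49, IRF1 at -0.02 and IRF7 at -0.17. IRF3, which acts below STING1, fell slightly (-0.27, SE 0.07, edgeR adjusted p = 0.0298), a call that was lost without a filter on low counts and when any library but shNTC+Dox replicate 3 was left out (adjusted p up to 0.108). IRF5 (1.44, edgeR adjusted p = 0.0236), IRF2 (0.62, edgeR adjusted p = 0.0158) and STAT5B (0.44) rose. IRF5 was near the count filter, with 12 to 14 counts in the controls and 22 to 49 in the knockdown. Of 11 feedback inhibitors 1 (9.09%) rose, the deconjugase USP18 (0.45, edgeR adjusted p = 0.0362), and none fell. Leaving out shNTC+Dox replicate 1, shEHD1+Dox replicate 1 or shEHD1+Dox replicate 3 left no call among the receptor, JAK, STAT and IRF genes, and USP18 lost its call without shNTC+Dox replicate 2 or either of these shEHD1+Dox libraries. Calls over all genes dropped in these fits too.

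Other interferon-stimulated genes moved both ways. In a list of 96 without the 3 members, 70 were tested, and 8 (11.4%, against 8.75% of all genes) were lower and 17 (24.3%, against 8.59%) higher. The median log2 fold change was 0.25, with 18 genes below 0 and 52 above. These include genes that the count filter let through on the strength of one group. BATF2 (2.23, no call) passed only through the knockdown, with 7, 6 and 0 counts in the controls, and TRIM14 only through the controls. SP100, a nuclear body protein, was at 13.7, 19.4 and 18.6 CPM with shNTC+Dox and at 5.51, 5.67 and 5.07 CPM with shEHD1+Dox. Its groups were apart, and it fell at -1.67 on the log2 scale, with SE 0.16 (edgeR adjusted p = 0.000423). TRIM14, an adaptor of antiviral signalling, had the largest fall of the list at -1.91, with 17 to 20 counts in the controls and 4 to 7 in the knockdown (SE 0.45, edgeR adjusted p = 0.0220). OAS3, an RNA-activated oligoadenylate synthetase, was lower at -1.23 (SE 0.15, edgeR adjusted p = 0.00133), from 8.29 to 3.53 CPM. IFI44 went from a mean of 25.0 to one of 11.1 CPM (log2 fold change -1.17, SE 0.13, edgeR adjusted p = 0.00085), and its paralog IFI44L was lower at -0.71. The other 3 lower genes were GBP1 (-0.75), TMEM140 (-0.50) and CNP (-0.36).

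The rises included genes induced by the same interferon route. IFIT1, a sensor of foreign 5′ RNA ends, was at 10.1, 9.70 and 9.17 CPM with shNTC+Dox and at 14.8, 15.0 and 14.7 CPM with shEHD1+Dox (log2 fold change 0.62, edgeR adjusted p = 0.00565). IFIT2 rose at 1.07 (edgeR adjusted p = 0.0023) and IFIT3 at 0.55, opposite to BST2 and IFI16, while IFIT5 passed no threshold (0.08, edgeR adjusted p = 0.516). The largest called rises were CASP1, the inflammasome protease (1.35, SE 0.36, edgeR adjusted p = 0.0342), DHX58, an RNA helicase (1.12, SE 0.31, edgeR adjusted p = 0.0398), and APOL6 (1.10, SE 0.14, edgeR adjusted p = 0.00134). CASP1 was near the count filter, with 10 to 21 counts in the controls and 35 to 57 in the knockdown. ISG15 (0.29, edgeR adjusted p = 0.104) and OAS1 (0.56, edgeR adjusted p = 0.357) passed no threshold. MX1 was not tested, with 0 counts in all 3 control libraries and 8, 0 and 11 in the knockdown. Of the 8 lower genes 4 (SP100, OAS3, IFI44 and IFI44L) were called in each alternative that could test them, and of the 17 higher genes 8 were. TRIM14, CASP1 and DHX58 were not among these. Leaving out shEHD1+Dox replicate 1 left 4 lower and 8 higher genes, shEHD1+Dox replicate 3 left 4 and 9, shNTC+Dox replicate 1 left 4 and 12, and shNTC+Dox replicate 2 left 5 and 12. Calls over all genes dropped too, from 1469 lower and 1441 higher with all libraries. In the same order these fits held 722 and 619, 681 and 641, 884 and 829, and 1053 and 998.

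**Figure D4:**
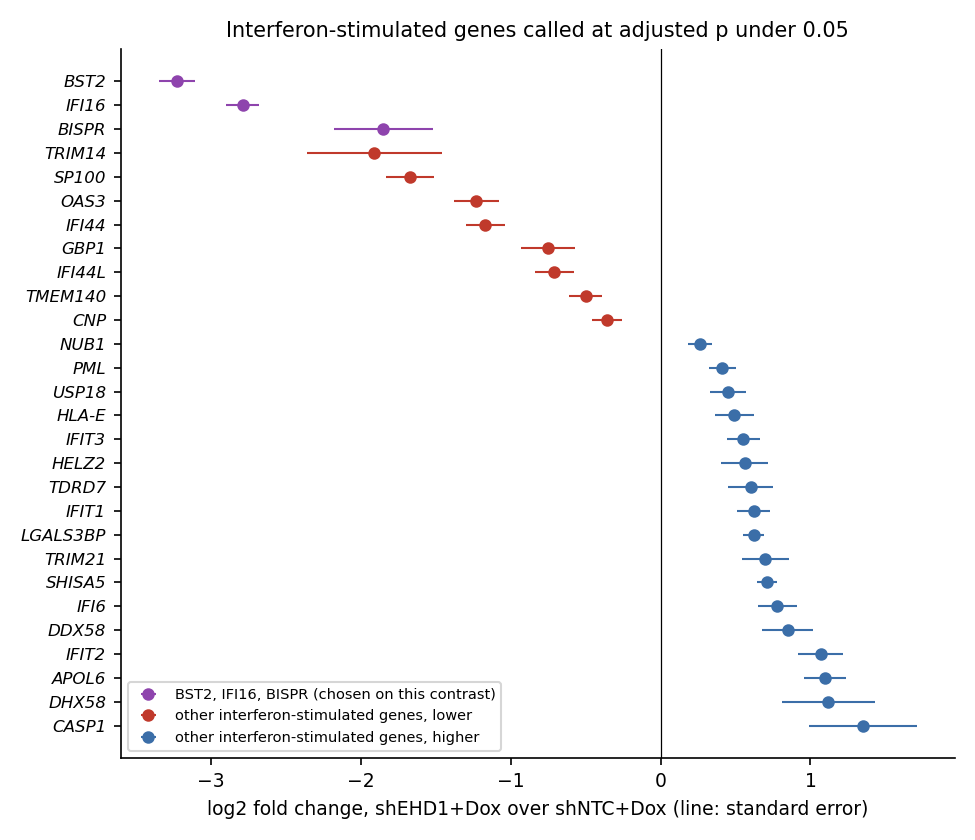
Log2 fold change of shEHD1+Dox over shNTC+Dox with a line for the standard error, for BST2, IFI16 and BISPR (purple, chosen on this contrast) and for the other interferon-stimulated genes called lower (8, red) or higher (17, blue) at adjusted p under 0.05. BST2 (-3.23) and IFI16 (-2.79) lie left of all others, BISPR (-1.85) lies beside TRIM14 (-1.91), and the rises reach 1.35 at CASP1.

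Genes close to the function of IFI16 gave a mixed picture. Of 27 tested genes of DNA and RNA sensing 3 (11.1%, against 8.75% of all genes) were lower and 5 (18.5%, against 8.59%) were higher, with a median log2 fold change of 0.09. STING1, the adaptor that IFI16 signals through, was at 50.3, 51.4 and 54.3 CPM with shNTC+Dox and at 78.2, 71.5 and 78.9 CPM with shEHD1+Dox. It was higher in every knockdown library (log2 fold change 0.55, SE 0.07, edgeR adjusted p = 0.00191), the opposite direction to IFI16. CGAS, the other main sensor upstream of STING1, passed no threshold (-0.05, edgeR adjusted p = 0.797). The 3 lower genes were MRE11 (-0.32), PQBP1 (-0.29) and TRAF3 (-0.27), and the 3 largest rises were CASP1, DHX58 and the RNA sensor DDX58 (0.85), which the list shares with the interferon-stimulated genes. STING1 and DDX58 kept their calls in all 11 alternatives, whereas the 3 falls were all lost without shNTC+Dox replicate 1, shEHD1+Dox replicate 1 or shEHD1+Dox replicate 3. In those fits calls over all genes dropped as well.

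Genes close to the function of BST2 showed no fall of that size. Of 20 tested antiviral restriction factors other than BST2, some of them also on the list above, 6 (30.0%, against 8.59% of all genes) rose and none fell (8.75% of all genes did), at a median log2 fold change of 0.26. The largest rises were APOBEC3G, a cytidine deaminase (0.72, edgeR adjusted p = 0.0261), MARCHF8, a ubiquitin ligase (0.59, edgeR adjusted p = 0.00159), and SERINC5 (0.48). Of 29 tested genes that make or attach GPI anchors 2 (6.9%) were lower, PIGM (-0.54) and PIGF (-0.46), and 4 (13.8%) were higher, up to 0.45 for PIGT, with a median of -0.01. Of 27 tested genes of BST2 traffic, ubiquitination and NF-kB signalling 1 (3.7%) was lower and 4 (14.8%) were higher, with a median of 0.10. The lower one was AP1G1, a subunit of the clathrin adaptor AP-1 (-0.81, SE 0.07, edgeR adjusted p = 0.000267). It was at 130, 138 and 145 CPM with shNTC+Dox and 77.1, 77.7 and 81.6 CPM with shEHD1+Dox. NFKB1 had the largest rise (0.81, edgeR adjusted p = 0.000541). PIGM, PIGF, PIGT, MARCHF8, AP1G1 and NFKB1 were called in all 11 alternatives, and of the GPI anchor genes only PIGT rose without shNTC+Dox replicate 1, shEHD1+Dox replicate 1 or shEHD1+Dox replicate 3. Over all genes, calls dropped in these 1-library-out fits too. Without shEHD1+Dox replicate 3 the rises among restriction factors numbered 3 and those over all genes 641, against 6 and 1441 with all libraries. APOBEC3G lost its call without shNTC+Dox replicate 2, shEHD1+Dox replicate 1 or shEHD1+Dox replicate 3 (adjusted p up to 0.0995), and SERINC5 without shEHD1+Dox replicate 2 or 3 (up to 0.0767). Among 5 other interferon-induced long non-coding RNAs 2 were tested and neither was called.

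Over these lists together, 185 genes other than the members were tested, of which 15 (8.11%, against 8.75% of all genes) were lower and 37 (20%, against 8.59%) higher. Only 1, TRIM14, had a log2 fold change at or below that of BISPR, and none reached that of IFI16 or BST2. TRIM14 passed the count filter only through its control libraries. Of the other EHD family genes none was called, and EHD1 itself was the 1 lower gene of 4.

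**Figure D5:**
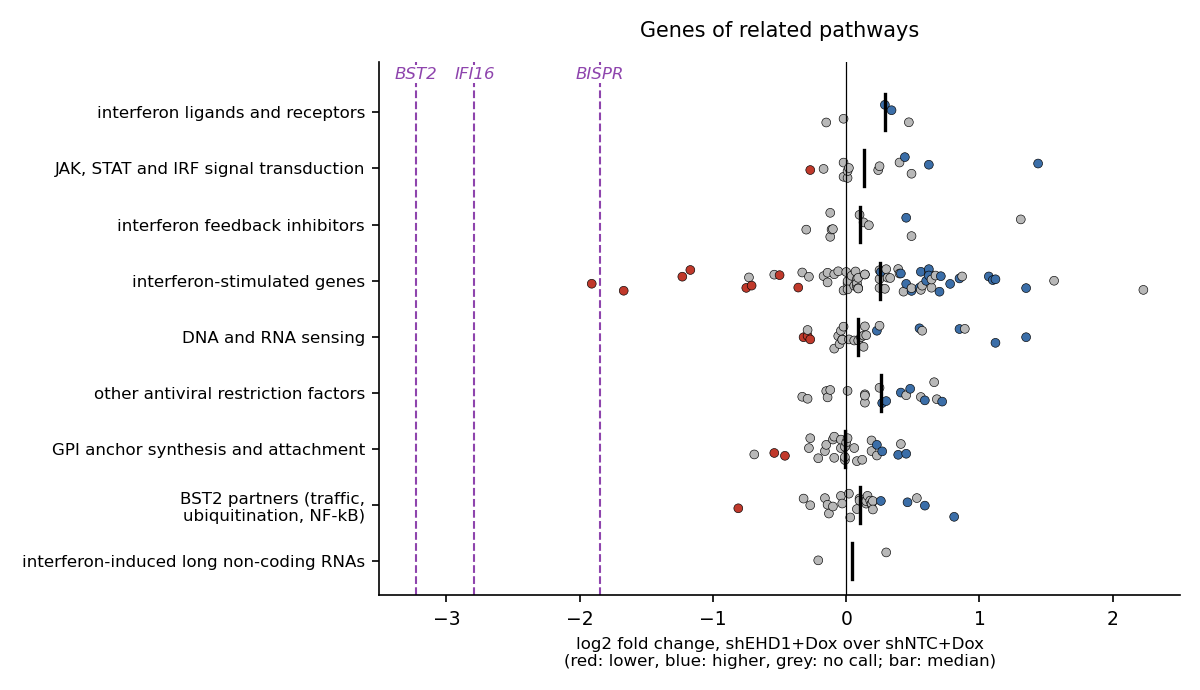
Log2 fold change of shEHD1+Dox over shNTC+Dox for the tested genes of each list (a point per gene, red for lower and blue for higher at adjusted p under 0.05, grey for no call, and a black bar at the median), with dashed lines at the values of BST2, IFI16 and BISPR. All list medians lie between -0.01 and 0.29, and the lowest gene, TRIM14 at -1.91, lies just beyond BISPR.

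Across the 6 libraries, the log2 CPM of BST2 and IFI16 had a Pearson r of 0.997, that of BST2 and BISPR 0.972 and that of IFI16 and BISPR 0.962. These values describe mainly the shared difference between 2 groups of 3 libraries, which many genes have: of 14209 genes at a mean of 1 CPM or more, 564 exceeded an r of 0.95 with BST2, 576 with IFI16 and 342 with BISPR. The 5 genes most like BST2 were SCNN1G, ANKRD9, DCAF7, KDM4B and FAM49A, with r from 0.9985 to 0.9993. Those most like IFI16 were AC005943.1, LINC00839, PKP4, BRD9 and PPME1 (0.9989 to 0.9996), and those most like BISPR were PLPP6, CENPX, NDUFA10, MRPL37 and PLP2 (0.9946 to 0.9986). AC005943.1 had 52, 51 and 53 counts in the controls and 0 in every knockdown library. Its log2 CPM in the knockdown was therefore set only by the small count added before taking logs. No other member appeared among the 5 nearest of any, and none of the 15 was in the interferon lists.

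The 7-base word AAGCTCT was looked for because its carriers were lower in these libraries, so the counts here describe the same data on which the word was chosen. It was found in an annotated transcript of 5910 (35.4%) of 16715 tested genes. Of these carriers 12.1% were lower, against 6.99% of the other genes, and the median log2 fold changes were -0.02 and 0.01. Of the 292 genes lower by 2-fold, 116 (39.7%) carried it, a share near that of all genes. No transcript of BST2, IFI16 or BISPR carried it. EHD1 carried it in 8 of 13 transcripts. NRAS carried it in its 1 transcript, KIF14 in 2 of 2, OSTM1 in 17 of 22, EXOC5 in 5 of 11 and DCAF7 in 4 of 19. Among the interferon-stimulated genes it was in at least 1 transcript of 5 of the 8 lower and 6 of the 17 higher ones. With 3 members, themselves chosen on this contrast, nothing can be read from their lack of the word, and no test was made. Longer transcripts hold any word more often.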

How the data were processed

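RNA of 6 TC71 libraries was sequenced with paired reads of 75 bases. The deposited file holds counts per gene, made by the authors from alignments to hg38 with Ensembl annotation. The methods name hisat2 and StringTie, whereas the submitters' processing notes name STAR 2.7.3a and DESeq2. How the counts were derived, the strand setting and the handling of reads shared by genes are not given in the sources used here. Every column had a sample.

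The 3 members, the gene lists and the word AAGCTCT were chosen with earlier results of these data known. A gene needed 10 counts or more in 3 libraries or more (16785 of 60676 passed), and these were fitted over all 6 libraries in edgeR 4.0.16 (R 4.3.3) with TMM, a robust quasi-likelihood F test and Benjamini-Hochberg adjustment. The two-sided test was called at an adjusted p under 0.05. CPM used TMM-scaled totals, and log2 CPM a prior count of 2. The biological coefficient of variation was 15%. The fit was tested on simulated data. Alternatives were DESeq2's size factors, DESeq2 1.42.0, other count filters, the replicate block and each library left out, and for single called genes these were added after the data were seen.

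Positions, exons and transcripts came from GENCODE 44, which held 60357 (99.5%) of the gene identifiers. Genes named beyond the members were EHD1, the next 5 places by p-value, up to 3 called falls and 3 called rises per list, founding genes of each pathway, called and nearest neighbours, and the 5 most alike genes. The remaining named genes, such as GBP1, IFIT3 and CD68, were named after their values were seen, to complete a count or family. Same-numbered libraries of the groups did not deviate together (correlations of -0.0593 to 0.072), so the numbers were not taken as pairs. One gene of the pathway lists is not reported here.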

Additional observations from a re-analysis of the deposited data

How the results depend on the processing

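The log2 fold changes of BST2 (-3.30 to -3.19), BISPR (-2.07 to -1.67) and IFI16 (-2.84 to -2.73) kept their direction in each alternative that gave a value, apart from BISPR summed with the 3 overlapping genes (0.39, standard error 0.17). That sum consists mostly of MVB12A counts and cannot show how BISPR itself moved. BISPR had no value under the filter of 10 counts in every library, having 8 in 1 library. EHD1 stayed called throughout (-1.88 to -1.68). Under the replicate block, 892 genes were lower and 874 higher, and 4 interferon-stimulated genes were lower and 10 higher. Whether the libraries are paired is not stated, and the correlations did not show it. Leaving out each library gave 681 to 1734 lower and 619 to 1882 higher genes, and 4 to 7 lower and 8 to 17 higher interferon-stimulated genes. Leaving out shNTC+Dox replicate 1 gave 884 lower and 829 higher genes, shEHD1+Dox replicate 1 gave 722 and 619, and shEHD1+Dox replicate 3 gave 681 and 641, each more than 1.5 times below the full set. The counts by 2-fold ran from 192 to 255 lower and from 96 to 206 higher over these fits. The cause of these drops was not tested. Leaving out shNTC+Dox replicate 3, which leaves as few libraries, gave 1734 lower and 1882 higher genes. For interferon-stimulated genes, leaving out shNTC+Dox replicate 2 gave 5 lower, against 8. With 8 to 54 counts per library, BISPR is the member that depth limits.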
